A study of Homo sapiens with 8 samples.

Results

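The HDAC2 peak list holds 16125 regions of the genome at which chromatin immunoprecipitation followed by sequencing (ChIP-seq) recovered more DNA with an antibody against HDAC2 than an input library did. All of them are described here; they are 16125 of the 159806 peaks in the 7 lists of the series. The study compared 7 antibodies in 697 cells, with 1 library per antibody and 1 input library of genomic DNA taken with no antibody. The HDAC2 antibody was ab7029 from Abcam. 697 is an established cell line derived from a human pre-B leukaemia; the cells were kept with 10% fetal bovine serum, no treatment is named in the labels, and they stand for 1 line only. For the HDAC2 and the input library alike, the fragments went through 15 PCR cycles, measured about 250 bp with their adapters, and were read on a HiSeq 2500. The other 6 lists, for MTA2, Mi2, IKAROS, AIOLOS, OCT2 and OCAB, enter only as partners of the HDAC2 peaks.

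HDAC2 is a class I histone deacetylase, an enzyme that removes acetyl groups from histone tails. It does not read DNA letters itself and works inside corepressor complexes, among them NuRD, which also holds the MTA2 scaffold subunit and the Mi2 chromatin remodeller, and the Sin3 and CoREST complexes. In lymphoid cells the zinc-finger factors IKAROS and AIOLOS bind DNA and associate with NuRD, while OCT2 binds the octamer motif and OCAB is its B-cell coactivator. A ChIP-seq peak records where the crosslinked protein was recovered with DNA, directly or through such partners, and the antibody cannot tell one complex from another.

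Of 28008 putative HDAC2 peaks, 16125 (57.6%) were kept in the list. The header of the list states the rules: a peak is 318 bp wide, and a threshold of 11 tags (mapped reads) applied at calling, which the score of every listed peak meets although some list fewer tags. A peak must also stand at least 4-fold above the input and 4-fold above the surrounding 10000 bp, each with a Poisson p-value of at most 0.0001. Comparison with the input removed 8205 putative peaks (29.3%). Comparison with the surrounding region removed another 3678 (13.1%), and 0 were removed for holding too many tags at too few positions. The header also states that at most 1 tag per bp was considered, which limits what that last filter could remove. The library held 10915066 tags, of which 291891 (2.67%) fell inside the listed peaks. The input enters only through the values of the list, whose steps imply an input of about 19.9 M tags; whether this is the deposited input library is not stated. There is no second HDAC2 library, so no value below has a replicate error; the intervals are 95% Wilson or Newcombe intervals and cover counting error only, and the amplified reads carry no molecular identifier.

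Which putative peaks stayed in the list differed with their rank. Each peak name ends in a number, and within a chromosome a low number went with a high peak score (Spearman rho between -0.998 and -0.989). The highest numbers of all sequences sum to 27854, or 99.5% of the putative peaks. What the number stands for is not stated; read as a rank among putative peaks, it shows where listed peaks are missing. Among the best-ranked decile of the numbers, 91.4% were listed (interval 90.3% to 92.4%). The share was 57.3% in the fifth decile and 35.5% (33.7% to 37.3%) in the last decile. On that reading, most putative peaks at the low end did not pass the limits, and the listed ones are the remainder.

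Peak height, a peak's tag number scaled to a library of 10 M tags, varied over a narrow range for most peaks. The lowest height was 8.25, the median 14.7, the upper quartile 19.2 and the highest 297.8. In tags, the median peak rested on 16, the lowest on 9. A height of 20 was reached by 3706 peaks (22.98%), a height of 50 by 111 and a height of 100 by 17. The highest 1% of peaks held 4.11% of all tags in peaks and the highest 10% held 21.1%.

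Among the 10 highest peaks on chromosomes 1 to 22 and X, 9 had between 4 and 15 input tags, against a median of 4 over the list, and 1 had far more. The highest, on chromosome 16 from 90098449 to 90098767 (build hg19, as all positions here), held 325 tags against 6 input tags. The peak on chromosome 10 from 1613936 to 1614254 held 197 tags against 6 input tags. The one with far more was the second highest, on chromosome 7 from 61970213 to 61970531, with a height of 182.3. It held 199 tags against 81 input tags, 4.50-fold over input after scaling, close to the limit of the list. It overlapped no peak of the other 6 lists, whereas each of the other 9 overlapped an MTA2 peak and 8 of those 9 also a Mi2 peak. The region among those 9 that lacked Mi2, on chromosome 1 from 1058888 to 1059206 with a height of 140.2, overlapped MTA2 and no other list. No annotation of build hg19 was used here, so no gene is assigned to a region.

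Peaks were sorted by height into 10 groups by rank, called deciles here, with equal heights kept together, so that they held 923 to 2538 peaks. The lowest decile spanned heights of 8.25 to 9.16 and the highest 25.7 to 297.8. Higher peaks also had more input tags beneath them. The median was 3 input tags in the lowest decile and 6 in the highest, with 4 over the whole list (quartiles 3 and 5). Across all 16125 peaks the rank correlation of height with scaled input signal was 0.494; the 4-fold limit ties the measures together, since a low peak over much input could not be listed. Height also enters the fold over input and the fold over the surrounding region, so a rise of either with height is partly set by construction. The fold over input had a median of 6.11 in the lowest decile and 10.69 in the highest. The steps between were uneven, with 7.33 in the third decile and 6.41 in the fourth, and its rank correlation with height was 0.151. The fold over the surrounding region had medians of 6.09 in the lowest decile and 9.82 in the highest.

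**Figure D1:**
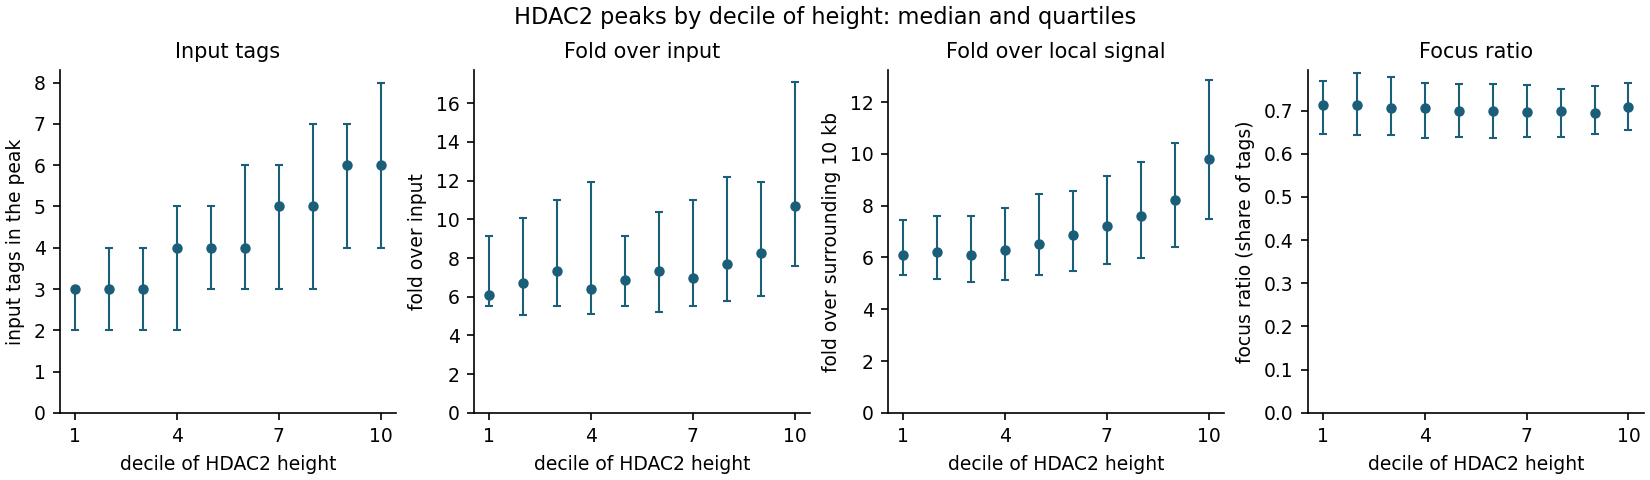
Input tags, fold over input, fold over the surrounding 10 kb and focus ratio of HDAC2 peaks (vertical axes from 0) in each decile of HDAC2 height (horizontal axes, 1 lowest); points are medians and bars the quartiles over peaks, not replicate errors. Median input tags go from 3 to 6 and the median fold over input from 6.11 to 10.69, while the focus ratio stays between 0.694 and 0.714.

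The input beneath single peaks was thin. No input tag was found under 432 peaks (2.68%, interval 2.44% to 2.94%), and 75.8% of peaks had at most 5. For the 432, the fold in the list rests on a substitute for 0 that appears as 0.3 on the scaled input column, so no fold is given for them here. The share with no input tag was 5.85% in the lowest decile and 1.71% in the highest. The highest such peak, on chromosome 15 from 40422838 to 40423156, held 84 tags and overlapped Mi2 and OCT2 peaks. The next, on chromosome 19 from 19798008 to 19798326, held 69 tags and overlapped every other list but OCAB. Peaks without input tags therefore included some with many partners. At the other end, 402 peaks had 10 or more input tags, 25 had 15 or more and 11 had 20 or more.

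The limits of the list can be seen in its weakest members. Against input, the 3 listed peaks with the highest p, all on chromosome 1 (starting at 38388464, 232887543 and 32424015), each held 10 tags over 4 input tags, 4.58-fold, with a deposited Poisson p of 9.5e-05. One of the 3 overlapped MTA2, IKAROS and AIOLOS, another IKAROS and AIOLOS, and the last no list. Under 5-fold over input lay 15.0% of the list, and under 5-fold over the surrounding region 15.3%. A much stricter p of at most 1e-10 was met by 6674 peaks (41.4%), whose median height was 19.2.

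The focus ratio, the share of a peak's tags that lie on the side of its centre where tags of their strand belong, hardly followed height. It had a median of 0.704 over the list (quartiles 0.643 and 0.765, range 0.385 to 0.978). The median was 0.714 in the lowest decile and 0.708 in the highest, and the rank correlation with height over the 16125 peaks was -0.03. The spread between peaks was smaller among high peaks, with an SD of 0.0949 in the lowest decile and 0.0818 in the highest, where each ratio rests on more tags. A weak relation of 0.22 linked the ratio to the fold over the surrounding region, both computed from the same tags.

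Over the whole list, peaks with very high focus ratios more often lacked partners. A ratio of 0.9 or more was found for 254 peaks, and 86 of them (33.9%, interval 28.3% to 39.9%) overlapped none of the other 6 lists, against 15.3% of the whole list. On chromosomes 1 to 22 and X alone, 72 of 240 such peaks had no partner. In the highest decile the contrast was 13 of 30 peaks (43.3%, 27.4% to 60.8%) against 25 of 1664 (1.502%, 1.02% to 2.21%) at lower ratios. Only 7 of these 13 lay on chromosomes 1 to 22 and X. The intervals of the shares at high and at lower ratios also lay apart in the fifth decile (42.9% against 13.0%) and the eighth (22.2% against 5.66%). In the other 7 of 10 deciles they overlapped, with 51.6% against 36.9% in the lowest decile and 10.3% against 10.8% in the sixth. The most extreme ratio of the highest decile, 0.978, belonged to a peak on chromosome X from 61719645 to 61719963 with 44 tags, 20 input tags and no partner. The lowest, 0.460, was at chromosome 10 from 14792865 to 14793183, with 28 tags, 5 input tags and overlapping MTA2, IKAROS, AIOLOS and OCT2 peaks.

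Some of these sharply focused peaks without partners lay beside long stretches of chromosome with no peak at all. For each chromosome the longest interval without a peak in any of the 7 lists was found. It ranged from 0.783 Mb on chromosome 22 to 21.4 Mb on chromosome 1, and measured 3.01 Mb on chromosome 8 and 4.01 Mb on X. Within 1 Mb of such an interval lay 157 of the 16092 peaks on chromosomes 1 to 22 and X (0.976%). Of the 72 peaks on these chromosomes with a focus ratio of 0.9 or more and no partner, 9 did (12.5%, interval 6.72% to 22.1%), so most did not. In the highest decile, 6 of the 7 such peaks did. Among these 6, the chromosome 8 peaks from 43822288, 43827888, 46841630 and 46845412 all flanked the same interval. Such neighbours are not independent cases, although the share and its interval count them as separate peaks. Both peaks that border the chromosome 8 interval, from 43827888 to 43828206 and from 46841630 to 46841948, were of this kind. Their heights were 51.3 and 58.6, over 22 and 19 input tags. The chromosome X peak above lay 7.14 kb from the HDAC2 peak that borders the X interval. The edges of an interval are set by peaks of any list, HDAC2 included, so a bordering peak is partly fixed by the definition. As background, the hg19 assembly leaves most centromeres as unsequenced gaps; which intervals hold one was not examined. Among peaks with 20 or more input tags on these chromosomes, 4 of 6 lay within 1 Mb of such an interval.

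The 157 peaks near these intervals were close to the rest in height, and more of them had no partner. Their median height was 13.7 and their median focus ratio 0.720, against 14.7 and 0.704 for the 14901 peaks that lay away from intervals and chromosome ends. They overlapped no other list in 27.4% of cases, against 15.4%. MTA2 was listed at 54.8% of them against 63.4%, IKAROS at 64.3% against 72.5%, AIOLOS at 56.1% against 64.6% and OCAB at 6.37% against 10.2%. Mi2, at 20.4% against 21.1%, and OCT2, at 27.4% against 27.1%, were closer. No intervals were computed for these shares of 157 peaks, so small differences such as that of OCAB may be counting error. A further 24 peaks lay on 9 unplaced or unlocalised sequences, with heights of 10.1 to 198.8; 11 of them were in the highest decile, and 7 were among the 30 peaks with the most input tags of the list.

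The peak score that the caller, HOMER's findPeaks, attached to each region was nearly the tag count again. It was never below the tag count, equalled it in 6493 peaks (40.3%), exceeded it by 1 in 7004 and by 2 in 2115, and by 7 at most. Over peaks, height and score had a rank correlation of 0.988. The score had a floor at the 11-tag threshold, where 1822 peaks (11.3%) stood. Below it in tags lay 923 peaks with 9 or 10 tags, which are the lowest decile of height and had scores of 11 or more. The ratio of score to tags had a median of 1.10 in the lowest decile and 1.03 in the highest. With deciles of the score in place of height the difference turned from -0.07 to 0.03, and under a p limit of 1e-10 to 0.02, so no trend of this ratio with height is claimed. The largest ratio was at chromosome 15 from 56705193 to 56705511, where 9 tags had a score of 13. The peaks on chromosome 10 from 1613936 and on chromosome 8 from 1806177 to 1806495, with 197 and 120 tags, had a ratio of 1.

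HDAC2 peaks were mostly solitary, with a minority in short runs. The median distance to the nearest other HDAC2 peak, centre to centre, was 23.3 kb. A neighbour within 10 kb was found for 4633 peaks (28.7%, interval 28.0% to 29.4%) and one within 2 kb for 9.46%. No neighbour within 100 kb was found for 2632 (16.3%). With peaks linked when their centres lay at most 10 kb apart, 11492 peaks stood alone (71.3%) and 3570 in 1785 pairs. The remaining 1063 peaks (6.59%) formed 330 clusters of 3 or more. At an 8-fold limit over input the share with a neighbour within 10 kb was 14.8% and that in clusters 1.66%, and at a p of at most 1e-10 they were 17.6% and 2.89%; fewer listed peaks lie further apart by construction.

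The distances themselves were uneven. Neighbouring pairs numbered 302 at under 1 kb and 466 between 1 and 2 kb. The header gives a minimum distance of 636 bp, while the closest listed centres were 504 bp apart. The number then dropped to 147 between 3 and 4 kb and again between 4 and 5 kb. It was 297 between 5 and 6 kb and declined slowly to 220 between 9 and 10 kb. The step at 5 kb lies where a neighbour leaves the 10000 bp window, 5000 bp to either side, against which each peak had to be 4-fold higher. The fold over the surrounding region was lowest for peaks whose nearest neighbour was 2 to 5 kb away, with a median of 5.30 and 39.7% of peaks under 5-fold. For neighbours at 5 to 10 kb these values were 6.64 and 17.9%, and for peaks more than 100 kb from any other 7.89 and 6.65%. The part of the local limit in the missing pairs was not tested, since removed peaks were not analysed here.

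**Figure D2:**
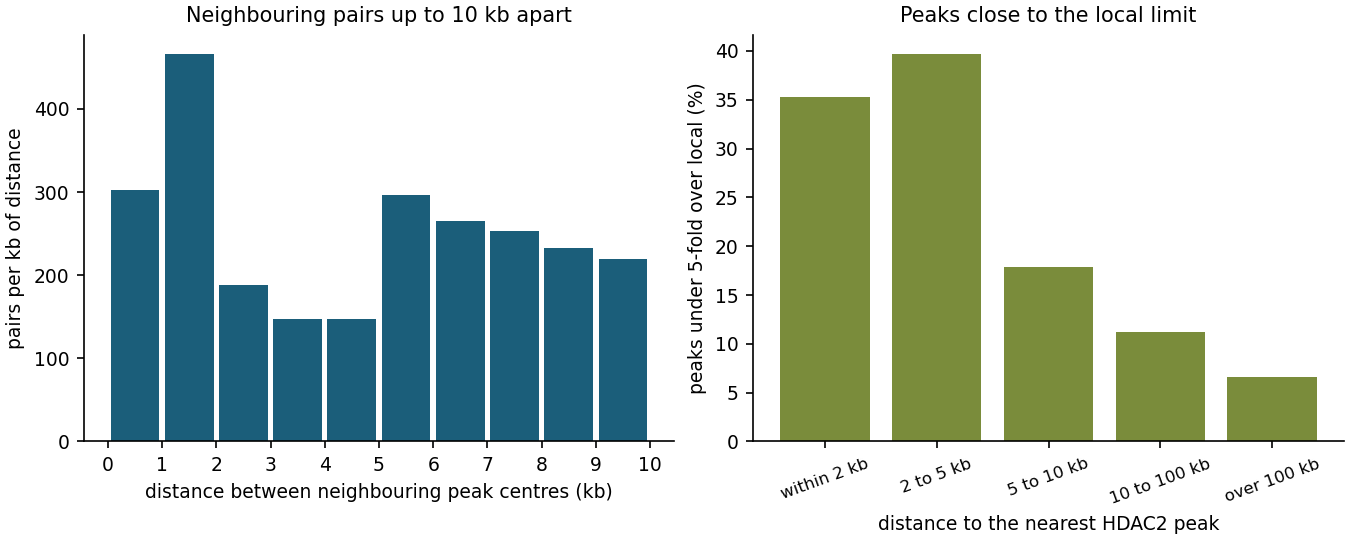
Left, neighbouring HDAC2 peak pairs per kb of distance (vertical axis) by the distance between their centres (horizontal axis, kb); right, share of HDAC2 peaks less than 5-fold above the surrounding 10 kb (vertical axis, percent) by distance to the nearest HDAC2 peak. Pairs fall to 147 per kb between 3 and 5 kb and number 297 between 5 and 6 kb, and the share under 5-fold is 39.7% at 2 to 5 kb against 6.65% beyond 100 kb.

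Higher peaks had close neighbours more often. A neighbour within 10 kb was found for 13.7% of the lowest decile, 35.4% of the eighth and 32.8% of the highest. Neighbours also resembled each other in height: the rank correlation of heights was 0.334 over 2518 neighbouring pairs within 10 kb and 0.0464 over 5662 pairs more than 100 kb apart. Pairs within 10 kb share their surroundings in the genome. The 4-fold limit over the surrounding 10000 bp also binds them, since a low peak close to a much higher one can fail it. The part of this limit in the trend with height and in the likeness of neighbours was not tested. The median ratio of the higher to the lower height was 1.29 against 1.36 for the distant pairs.

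The cluster with the most peaks spanned 32.7 kb on chromosome 11, from 66079821 to 66112564. Its 7 peaks had heights of 15.6, 31.1, 25.7, 19.2, 14.7, 20.2 and 15.6 in chromosome order, so only 2 lay in the highest decile. MTA2, IKAROS and AIOLOS each overlapped 5 of the 7, and the first peak of the run overlapped no list. On chromosome 8, from 123785936 to 123811446, 5 peaks had heights of 11 to 38.5; IKAROS overlapped all 5 and OCT2 4 of them. On chromosome 14, from 23018809 to 23039487, 5 peaks had heights of 17.4 to 28.4, and MTA2, IKAROS and AIOLOS overlapped every one. The run on chromosome 12 from 131530846 to 131559706 had MTA2 under all 5 peaks and Mi2 under 3. The run on chromosome 17 from 73841391 to 73860813 had no OCT2 or OCAB under any of its 5 peaks, and 2 of them overlapped no list. Over the whole list, MTA2 overlapped 63.7% of HDAC2 peaks, IKAROS 72.5%, AIOLOS 64.6%, Mi2 21.1%, OCT2 27.2% and OCAB 10.0%. With 5 to 7 peaks per cluster, no departure of these clusters from those shares is claimed.

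The density of HDAC2 peaks varied strongly between chromosomes. Between the first and last listed peak, chromosome 19 carried 15.8 HDAC2 peaks per Mb, chromosome 22 12.7 and chromosome 17 10.5, against a median of 5.75 over 23 chromosomes. Chromosome 4 had 2.84 and X 1.24. Close neighbours followed at the extremes, with 38.9% of chromosome 19 peaks and 17.2% of X peaks within 10 kb of another. Between these the order was looser: chromosome 22 had 31.9%, and chromosome 7, with 5.07 peaks per Mb, had 31.7%. Heights varied much less: the median was 13.7 or 14.7 on every autosome and 11.9 on X. The highest decile took 15.1% of chromosome 8 peaks, the largest share of any of the 23 chromosomes, and 2.15% of X peaks, the smallest.

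Chromosome X stood apart in its input as well. Its 186 peaks had a mean of 2.58 input tags, against 3.54 on chromosome 4 and 4.82 on chromosome 8, the lowest and highest autosome. No input tag lay under 24 of the 186 (12.9%). Of the numbered peaks of X, 91.2% were listed (interval 86.5% to 94.3%). Numbered peaks are counted up to the highest listed number of a chromosome, 204 on X. Any removed peak numbered beyond it is not counted, so the share can be too high, and the interval does not cover this. Chromosomes 1 and 8, whose mean input of 4.66 and 4.82 tags was highest, had the lowest listed shares at 51.1% (49.4% to 52.8%) and 51.4% (48.9% to 53.9%). The part of the input level in these differences was not tested.

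**Figure D3:**
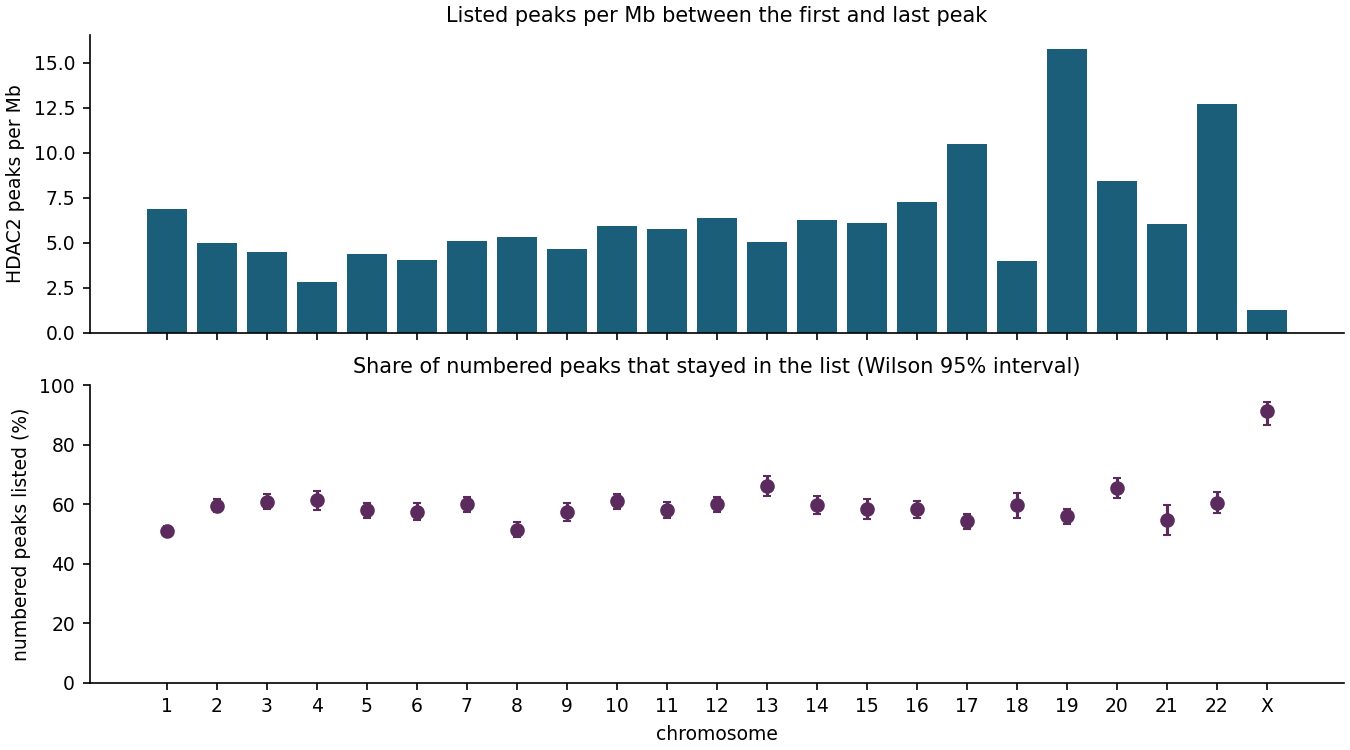
Listed HDAC2 peaks per Mb (upper panel) and the share of numbered peaks that were listed with its Wilson 95% interval, counting error only (lower panel, percent), for each of 23 chromosomes on the horizontal axis. Chromosome 19 has 15.8 peaks per Mb and X 1.24; X has 91.2% of its numbered peaks listed, chromosomes 1 and 8 51.1% and 51.4%.

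High HDAC2 peaks were more frequent near the ends of what the lists cover. Within 2 Mb of the outermost peak of any list on either side of a chromosome lay 6.49% of HDAC2 peaks (interval 6.12% to 6.88%). The share was 4.88% (3.67% to 6.47%) in the lowest decile, 10.2% (8.87% to 11.8%) in the highest decile and 14.9% (10.2% to 21.4%) in the highest 1%. The 1044 peaks in these end regions overlapped MTA2 in 69.9% of cases, against 63.4% of the 14901 peaks elsewhere, and reached the highest decile in 16.5% of cases against 10.0%. Their median of 4 input tags was that of the other peaks.

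The remaining results concern which other proteins were listed at an HDAC2 peak, called when a peak of another list shared at least 1 bp with it. The partner lists hold between 4440 peaks (OCAB) and 53948 (IKAROS), and the limits used to make them were not known here, so shares are compared along HDAC2 height and not between partners. All lists come from 697 cells with 1 library each.

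Both NuRD subunits were found more often at higher HDAC2 peaks. MTA2 overlapped 33.4% of the lowest decile and 92.0% of the highest, a difference of 58.6 points (interval 55.2 to 61.8), and its share went up in 9 of 9 steps between deciles. Mi2 overlapped 10.7% and 42.6%, a difference of 31.8 points (28.7 to 34.8), up in 8 of 9 steps. With peak centres required to lie within 100 bp of each other, the Mi2 difference was 18.8 points. Both subunits together were present at 4.88% of the lowest decile and 39.8% of the highest, and neither at 60.8% and 5.25%. Counted over all peaks, Mi2 without MTA2 went from 5.85% in the lowest decile to 2.77% in the highest, where fewer peaks lacked MTA2. Among peaks without MTA2, Mi2 was at 54 of 615 in the lowest decile and 47 of 136 in the highest.

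The lymphoid zinc-finger factors were also found more often at higher HDAC2 peaks. IKAROS overlapped 49.5% of the lowest HDAC2 decile and 87.5% of the highest, a difference of 38.0 points (34.3 to 41.5). AIOLOS overlapped 36.0% and 83.7%, a difference of 47.7 points (44.1 to 51.2). Each went up in 9 of 9 steps. With every partner list held to its 4000 highest peaks, the IKAROS difference was 63.9 points.

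The octamer factor and its coactivator were likewise found more often at higher HDAC2 peaks. OCT2 overlapped 8.34% of the lowest decile and 63.5% of the highest, 7.61 times as often, with a difference of 55.2 points (52.1 to 58.0). OCAB overlapped 2.60% and 29.2%, 11.2 times as often, with a difference of 26.6 points (24.2 to 29.0). Each share went up in 9 of 9 steps. OCAB together with OCT2 made up 1.30% of the lowest decile and 26.5% of the highest, and OCAB without OCT2 1.30% and 2.72%. Among peaks without OCT2, OCAB was at 12 of 846 in the lowest decile and 46 of 618 in the highest.

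**Figure D4:**
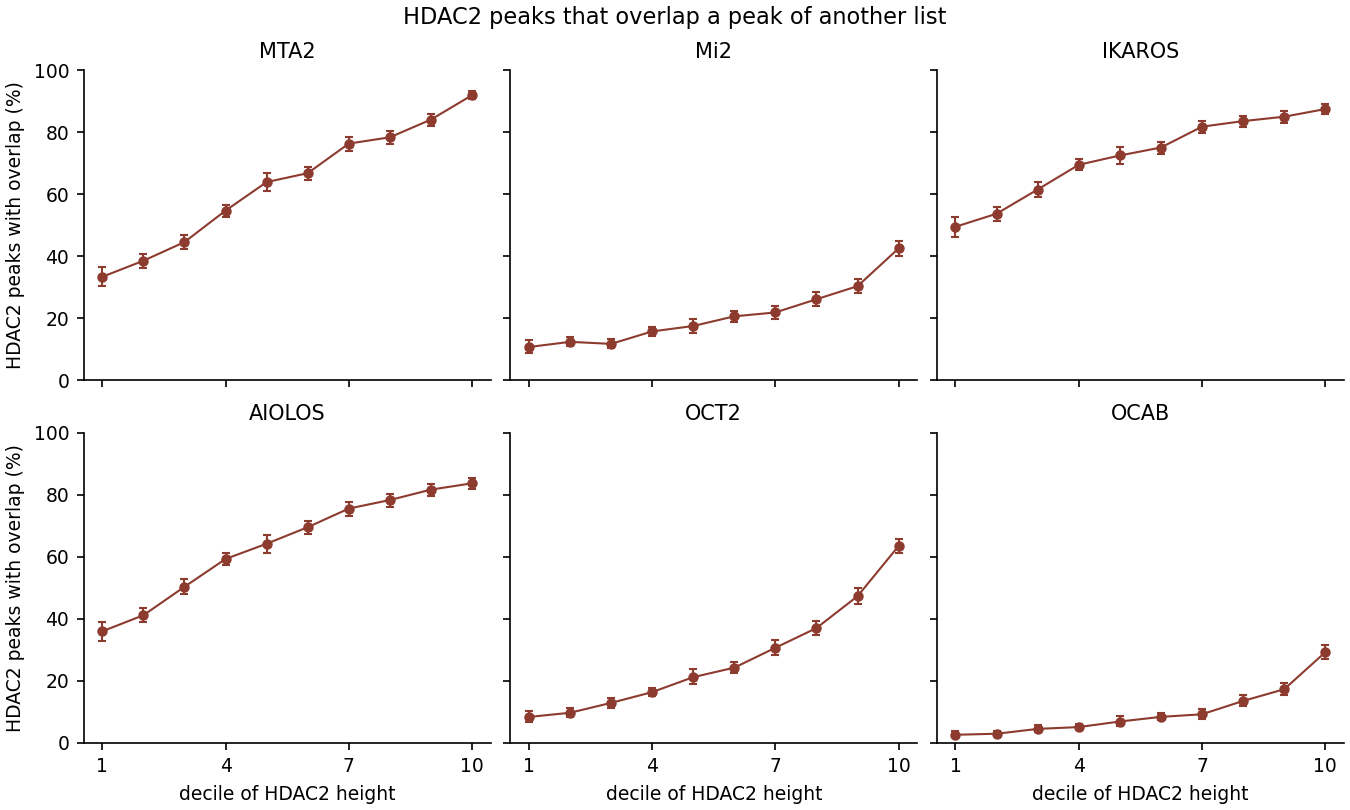
Share of HDAC2 peaks (vertical axes, percent) that overlap a peak of each of the other 6 lists, by decile of HDAC2 height (horizontal axes, 1 lowest); bars are Wilson 95% intervals and cover counting error only. All 6 shares are higher in the highest decile than in the lowest, from 33.4% to 92.0% for MTA2 and from 2.60% to 29.2% for OCAB.

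The partner peaks themselves were also higher within their own lists where HDAC2 was high. The MTA2 peaks met by the lowest HDAC2 decile had a median rank at the 33.2 percentile of the MTA2 list, those met by the highest decile at the 94.7 percentile. For IKAROS the medians were 54.2 and 97.0, for AIOLOS 38.5 and 95.3, for Mi2 41.0 and 86.9, and for OCT2 19.6 and 84.3. For OCAB they were 48.2, over only 24 overlapping peaks, and 60.5, with a minimum of 34.8 in the fifth decile (73 peaks). Over the overlapping peaks the rank correlation of HDAC2 height with partner rank was 0.676 for MTA2 (10264 peaks) and 0.215 for OCAB (1619 peaks), given as description of peaks that share their genome position. Centres of partner peaks other than Mi2 also lay closer to those of the highest HDAC2 peaks. The median distance to an MTA2 centre was 64 bp in the lowest decile and 44 bp in the highest, and to an IKAROS centre 86 and 49 bp. For AIOLOS it was 87 and 51 bp, for OCT2 77 and 51 bp, and for OCAB 130 and 63 bp, with uneven steps between. For Mi2 the distance followed no such order, with 99 bp in the lowest decile, 80 bp in the next, 106 bp in the ninth and 81 bp in the highest.

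Counted over all 6 lists, the lowest HDAC2 decile overlapped 1.41 of them on average and the highest 3.98. No partner was found for 2473 HDAC2 peaks in all (15.3%, interval 14.8% to 15.9%). They made up 37.4% of the lowest decile and 2.24% of the highest, a difference of -35.1 points (-38.4 to -32.0); with the 4000 highest peaks of each partner list it was -85.2 points. All 6 partners were present at 402 peaks (2.49%), with 1 of 923 in the lowest decile and 198 of 1694 (11.7%) in the highest. The median height was 11 with no partner, 14.7 with 3 and 24.7 with all 6. The share with an HDAC2 neighbour within 10 kb was 29.6% with no partner and 25.1% with all 6. Over the whole list it was 25.5% in the decile at a height of 11 and 32.6% in that from 21.1 to 24.7.

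The combinations differed as well. In the lowest decile the most frequent was no partner (345 peaks), followed by MTA2 with IKAROS and AIOLOS (122 peaks, 13.2%). In the highest decile the most frequent was MTA2 with IKAROS, AIOLOS and OCT2 (310 peaks, 18.3%), and 239 peaks had MTA2, IKAROS and AIOLOS alone (14.1%). MTA2 with Mi2 and no other list, the NuRD subunits without a listed lymphoid factor, was found at 37 peaks of the highest decile (2.18%). The share of this combination over the whole list and in the lowest decile is not given here, so 2.18% is not read as high or low.

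Among the regions with all 6 partners, the highest HDAC2 peak lay on chromosome 4 from 51660 to 51978, with a height of 123.7 over 15 input tags. Next came chromosome 7 from 73631805 to 73632123, with a height of 84.3 over 8 input tags, and then chromosome 1 from 116979264 to 116979582, with 69.6 over 6. Among regions without a partner, the peak on chromosome 7 from 61970213 was followed by chromosome 4 from 185888848 to 185889166, with a height of 60.5, 7 input tags and a focus ratio of 0.914. The next 3 were all on chromosome 8, from 46841630, 43822288 and 43827888, with focus ratios of 0.910, 0.968 and 0.966 and with 19, 24 and 22 input tags. The 5 highest regions with all 6 partners had focus ratios of 0.674 to 0.822. The peak without a partner on chromosome 7 from 61970213, at 0.794, lay inside that range. Over the whole list the median focus ratio was 0.714 with no partner and 0.7075 with all 6, so these few regions do not separate the 2 kinds.

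The very top of the list did not continue the trend for every partner. The highest 1% of peaks, 161 with a height of at least 45.8, were set against the other 1533 peaks of the highest decile. Mi2 was more frequent there, at 60.2% against 40.7%, a difference of 19.5 points (interval 11.4 to 27.2). IKAROS was less frequent, at 79.5% against 88.3% (-8.82 points, -15.9 to -3.05). So were AIOLOS, at 72.0% against 84.9% (-12.9 points, -20.5 to -6.25), and OCT2, at 52.8% against 64.6% (-11.8 points, -19.9 to -3.91). For MTA2 (88.2% against 92.4%, -4.17 points, -10.2 to 0.189) and OCAB (29.8% against 29.2%, 0.655 points, -6.28 to 8.45) the interval of the difference held 0. Overlap with no list was found for 9 of the 161 (5.59%) against 1.89%. The median input count was 6 tags in both groups, and the median fold over input 21.1 and 10.3. Of the 161, 6 lay on unplaced sequences, against 5 of the 1533.

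**Figure D5:**
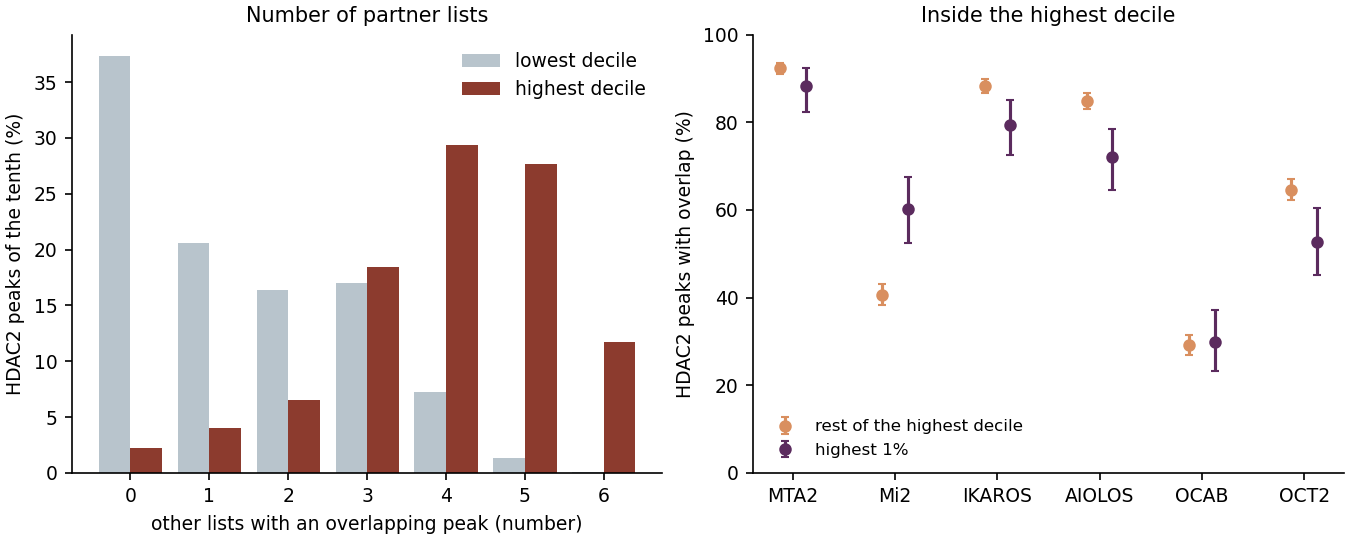
Left, share of the lowest and of the highest HDAC2 decile (vertical axis, percent) by the number of other lists with an overlapping peak (horizontal axis); right, share of peaks with each partner (vertical axis, percent) in the highest 1% of HDAC2 peaks and in the rest of the highest decile, with Wilson 95% intervals, counting error only. The lowest decile has 37.4% of its peaks without partner and the highest 2.24%, and in the highest 1% Mi2 stands at 60.2% against 40.7% while IKAROS stands at 79.5% against 88.3%.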

How the data were processed

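The HDAC2 library and the input library were processed with HOMER 4.9.1, Bowtie2 2.3.2.2 and CASAVA (1.4 for HDAC2, 1.8.2 for the input), per the submitters' processing notes, which name build hg19. Peaks were called on 1 library per antibody, and no pooling is recorded. The HDAC2 limits given in the report are stated per the file headers. For the other 6 lists, the limits were not given in the sources used here. Peak height is the signal column the authors deposited, in tags per 10 M tags. Tags per peak are deposited whole-number counts. The deposited input signal is scaled to the HDAC2 depth in steps of 0.548, which were divided out to give whole input tags. The fold columns are ratios that the authors deposited, over input and over the surrounding region. The p-value columns the authors deposited are Poisson values. The focus ratio is a deposited fraction, and the score is the authors' findPeaks score. These per-peak values are the authors' and serve to describe, rank and filter peaks within a list.

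From the lists were computed deciles of height with ties kept together, overlaps of at least 1 bp with both end positions counted as part of a peak, distances between peak centres, clusters of 3 or more peaks linked at up to 10 kb, and Wilson and Newcombe intervals at 95% (Python 3.11.15, pandas 2.3.3, numpy 2.4.6, scipy 1.17.1, matplotlib 3.10.9). The overlap and cluster code was tested on 5000 simulated peaks and made 0 wrong overlap calls. With 1 library per antibody no p-value between libraries was computed. The precision is set by a median of 16 tags and 4 input tags per peak from 10.9 M HDAC2 tags.

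Regions were named by rule on chromosomes 1 to 22 and X: the 10 highest peaks, the 5 highest without a partner, with all 6 partners and with no input tag, the 5 with the most input tags, the highest and lowest focus ratios of the highest decile, the 5 largest clusters, the 3 highest and lowest ratios of score to tags, and the 3 with the highest p over input. The members, lists and splits were chosen with earlier results of these data known; the highest 1%, the focus ratio limit of 0.9, the 1 kb distance classes, the longest intervals without peaks and the end regions were chosen after values were seen. No sequence or gene name is printed, because no genome or annotation of build hg19 was used here. Alternatives were other p and fold limits, overlap rules, link distances, tie handling, deciles of the score, main chromosomes only, peaks without the most input, and equal partner list lengths.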

Additional observations from a re-analysis of the deposited data

How the results depend on the processing

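Among the values recomputed for 14 results under 11 settings, 59 stayed within counting error or, for the count, within 1.5 times, 40 moved further and 2 changed sign. The differences between the highest and lowest height decile in partner presence kept their sign, with the interval on 1 side of 0, in 63 of 63 cases. The 2 that changed sign concern the median ratio of score to tags, highest minus lowest decile: -0.07 in the report, 0.0238 at a p over input of at most 1e-10 and 0.0303 with deciles of the score. It was -0.075 at 8-fold over input. At the p limit of 1e-10 the list held 6674 peaks with a median height of 19.2, the difference in median scaled input signal was 2.8 against 1.7, 17.6% of peaks had a neighbour within 10 kb and 2.89% were in clusters. There the decile differences in points were 51.1 for MTA2, 37.3 for Mi2, 32.8 for OCAB, 50.8 for OCT2 and -31.3 for no partner. At 8-fold over input the list held 7110 peaks with a median height of 15.6, the input difference was 1.6, and 14.8% and 1.66% were the shares for neighbours and clusters. The differences were 64.0 for MTA2, 41.0 for Mi2, 42.9 for IKAROS, 33.2 for OCAB, 59.8 for OCT2 and -40.5 for no partner. With links of 5 kb the shares for neighbours and clusters were 15.2% and 0.893%, and with 20 kb 46.1% and 19.9%, as the longer link admits more peaks by construction. With centres within 100 bp the differences were 52.0 for MTA2, 18.8 for Mi2, 42.3 for AIOLOS, 19.4 for OCAB, 44.6 for OCT2 and -46.0 for no partner. With overlap of at least 50% of the HDAC2 peak they were 24.3 for Mi2, 22.4 for OCAB, 49.3 for OCT2 and -43.5 for no partner. With the 4000 highest peaks of each partner list they were 74.2 for MTA2, 63.9 for IKAROS, 57.9 for AIOLOS and -85.2 for no partner. Fewer peaks were listed or fewer partners counted under these limits by construction; beyond that the cause was not tested. No paired analysis was possible because each antibody had 1 library. Depth limits the low end: a peak of the lowest decile rests on 9 or 10 tags and a median of 3 input tags.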
